A study of Mus musculus with 2 samples.

Results

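The myeloid lineage transcription factors described here are 9 genes: Spi1, Irf8, Irf4, Batf3, Klf4, Zeb2, Maf, Bhlhe40 and Bhlhe41. They were taken by symbol from the deposited gene list, and each symbol matched 1 of the 55357 gene identifiers, so all 9 were found. RENCA is a mouse kidney cancer cell line, and tumours of it were grown in the kidney of BALB/c mice. Cells of these tumours, sorted for the leukocyte surface protein CD45 according to the series description, were profiled by droplet single-cell RNA-seq in 1 library labelled SMYD3 knockdown and 1 library labelled WT. The SMYD3 knockdown is a feature of the grafted tumour, and the labels state no allele of the host mice in either library. The means of knockdown, the clones used, tumour size, time after grafting, mouse age and the number of mice pooled per library were not stated.

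Myeloid cells share one founder factor and then diverge. PU.1, the product of Spi1, opens the myeloid gene programme, and the later factors give each branch its character: Irf8 with Batf3 the cross-presenting type 1 dendritic cell, Irf4 the type 2 dendritic cell, Klf4 and Zeb2 the monocyte and macrophage, and Maf the mature tissue macrophage. Bhlhe40 and Bhlhe41 are paired repressors of the basic helix-loop-helix family that bind the E-box CACGTG and are known from the upkeep of lung alveolar macrophages.

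The member genes lie on 6 chromosomes of the mm10 build (GRCm38, GENCODE vM21). Spi1 spans chr2:91082390-91115756 and Zeb2 chr2:44983632-45117395. Irf8 spans chr8:120736358-120756694 and Maf chr8:115682942-115707794. Bhlhe40 spans chr6:108660629-108666925 and Bhlhe41 chr6:145858243-145865558. Batf3 spans chr1:191097847-191108945, Klf4 chr4:55527143-55532466 and Irf4 chr13:30749226-30766976. Zeb2, Maf, Bhlhe40 and Bhlhe41 each overlap a gene on the opposite strand with UMIs of its own, 7244 for Zeb2os at Zeb2, 6397 for Gm15655 at Maf, 29 for 0610040F04Rik at Bhlhe40 and 87 for Gm43909 at Bhlhe41. The use of strand in counting was not stated, so the split of reads in these pairs is uncertain.

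Because the Bhlhe40 and Bhlhe41 proteins bind CACGTG, the promoters of the members were searched for these letters, which read the same on both strands. Promoter sequence, 250 bases before to 50 bases after a RefSeq start (GRCm38.p6), was held for 6 of the 9 genes. CACGTG was found in 3 of these 10 promoters, those of Batf3, Klf4 and Bhlhe41, and 7.15% of 32851 mouse promoters of the same length hold it. The windows of 100 bases around it are shown because they place an E-box before a RefSeq start of an E-box repressor itself and of 2 other members. The Batf3 window lies inside the GENCODE span of Batf3 given above, so it precedes the RefSeq start and not the GENCODE start. Each reads 5′ to 3′ on the gene's strand, with the E-box in capitals. The windows are chr1:191098164-191098263 on the plus strand for Batf3, chr4:55532608-55532707 on the minus strand for Klf4 and chr6:145865561-145865660 on the minus strand for Bhlhe41.
Batf3: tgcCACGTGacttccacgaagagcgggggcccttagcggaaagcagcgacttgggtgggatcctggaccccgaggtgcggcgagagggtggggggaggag
Klf4: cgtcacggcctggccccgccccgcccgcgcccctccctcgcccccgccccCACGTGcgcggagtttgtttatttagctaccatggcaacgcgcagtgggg
Bhlhe41: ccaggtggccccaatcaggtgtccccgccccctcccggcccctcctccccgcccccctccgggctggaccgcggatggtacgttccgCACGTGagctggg
The first base of the E-box stands at position -247 before the Batf3 start, -182 before the Klf4 start and -153 before the Bhlhe41 start. A match of letters is a description and not a binding site. The letters GAGGAA, the core that PU.1 prefers, were found on either strand in the promoters of Batf3, Irf4 and Zeb2, against 28.3% of all promoters.

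After filtering, 8784 cells remained in the library labelled SMYD3 knockdown, here called KD-labelled, and 8079 in the library labelled WT, here called WT-labelled. The median was 8665.5 UMIs (unique molecules) per cell in the KD-labelled library and 9435 in the WT-labelled library. The targeted gene did not separate the libraries: in 46 KD-labelled and 89 WT-labelled cells with tumour or epithelial markers, Smyd3 had 29 UMIs KD-labelled (21.6 CPM, counts per 1000000 UMIs) and 40 UMIs WT-labelled (16.9 CPM), a ratio of 1.28 (95% interval 0.763 to 2.11). The libraries are therefore named by label. Ptprc, the gene of CD45, had a UMI in 81.6% of KD-labelled and 83.8% of WT-labelled cells, whereas the sample labels call the cells epithelial. In cells with tumour or epithelial markers the share was 15.2% KD-labelled and 18.0% WT-labelled, at a median depth of 23516.5 UMIs KD-labelled and 26952 UMIs WT-labelled. There were 22 barcode sequences found in both libraries, 16 of them among kept cells of both. Pancreatic transcripts summed to 2036 CPM in KD-labelled neutrophils and 0.659 CPM in WT-labelled neutrophils, and 98 KD-labelled cells and no WT-labelled cell met the pancreatic acinar rule.

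Cells were assigned to 16 gates by marker genes, none of which is a member, and 6616 KD-labelled and 6321 WT-labelled cells fell in them. A gate name stands for cells that met its marker rule, not for a cell type shown by other means. The 4 macrophage gates are the Lyve1 Cd163, Cx3cr1 Vcam1, Arg1 Spp1 and Mmp12 Gpnmb states (2141 KD-labelled and 2436 WT-labelled cells). The 3 monocyte gates are the MHC class II-high, Car4 Vcan and Ly6c2 Plac8 states (1846 KD-labelled and 1729 WT-labelled cells). Neutrophils (1728 KD-labelled and 988 WT-labelled cells) were divided into Retnlg-high, Mmp9 Cd177 and Cd274 Hcar2 states and a remainder, and dendritic cells (208 KD-labelled and 274 WT-labelled cells) into type 1, type 2 and migratory gates. The Nos2 Inhba, interferon-response and cycling gates hold mononuclear phagocytes of mixed origin. Levels are CPM, a gene's UMIs over all UMIs of the gate, and intervals are exact at 95% and cover counting error alone. Neutrophils held a median of 1413.5 UMIs per cell in the KD-labelled library and 1356.5 in the WT-labelled library, against 12111 KD-labelled and 10675 WT-labelled in macrophages, so neutrophil values rest on few molecules per cell. With 1 library per label there is no replicate, no test was possible, and every difference is one between these 2 libraries.

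Each of the 9 factors had its highest level in the same gate in both libraries. Irf8 was highest in type 1 dendritic cells, Irf4 in type 2 dendritic cells and Batf3 in migratory dendritic cells. Maf and Klf4 were highest in Lyve1 Cd163 macrophages, Zeb2 and Bhlhe41 in Nos2 Inhba cells, Bhlhe40 in Cd274 Hcar2 neutrophils and Spi1 in Retnlg-high neutrophils. For Zeb2 and Bhlhe41 the highest gate did not exceed the next beyond the difference between the libraries. The next were Cd274 Hcar2 neutrophils for Zeb2 and Mmp12 Gpnmb macrophages for Bhlhe41. Between the libraries, 0 of the 7 members with enough counts differed by at least 1.5-fold over the macrophage gates, where 1.90% of all genes did. With so few members, a count of 0 does not set them apart from all genes. The filter was 20 UMIs and 10 CPM in the higher library. It left out Irf4 and Batf3 there. Ordered by level over the 16 gates, both libraries of a gate exceeded both of the next gate in 3 of 15 steps for Spi1 and Klf4, 4 for Irf8, 5 for Zeb2, 6 for Batf3, 7 for Irf4, 8 for Bhlhe40 and Bhlhe41, and 10 for Maf. The other neighbouring gates did not differ beyond the difference between the libraries.

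**Figure D1:**
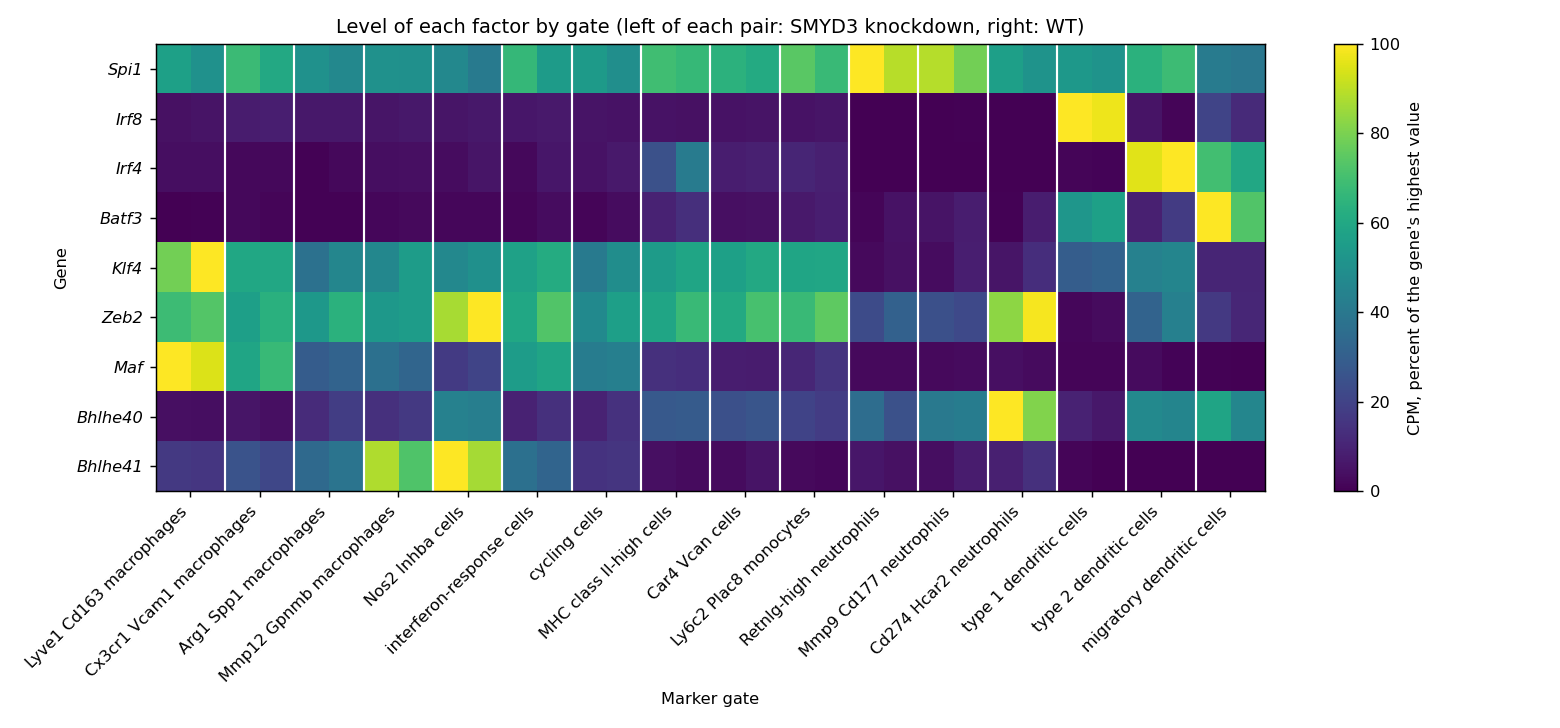
Level of each of the 9 factors (rows) in the 16 marker gates (columns, KD-labelled left of WT-labelled in each pair), with colour showing CPM as a percent of the gene's highest value. Irf8 stands out in type 1 dendritic cells (3359 CPM KD-labelled, 3277 CPM WT-labelled), Maf in Lyve1 Cd163 macrophages (1910 CPM KD-labelled, 1809 CPM WT-labelled), and Spi1 spans 249 to 600 CPM KD-labelled and 238 to 534 CPM WT-labelled.

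Spi1, the founder ETS factor, was detected in every gate and within a narrow range. Its highest levels were in Retnlg-high neutrophils, with 600 CPM in KD-labelled cells (288 UMIs) and 534 CPM in WT-labelled cells (114 UMIs). Mmp9 Cd177 neutrophils followed with 533 CPM KD-labelled and 473 CPM WT-labelled, and Ly6c2 Plac8 monocytes had 447 CPM KD-labelled and 407 CPM WT-labelled. In the WT-labelled library type 2 dendritic cells, at 412 CPM, stood above these monocytes. The lowest were migratory dendritic cells, at 249 CPM KD-labelled and 238 CPM WT-labelled. Below the first pair of gates the levels formed a gradual series.

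Between labels, Spi1 was slightly higher in the KD-labelled library in 15 of 16 gates, never by 1.5-fold. Over the macrophage gates it had 346 CPM in KD-labelled and 312 CPM in WT-labelled cells, a ratio of 1.11 (1.08 to 1.14). The ratio was 1.05 over the monocyte gates and 1.12 (1.01 to 1.23) over the neutrophil gates. Interferon-response cells had the highest ratio, 1.22 (1.11 to 1.33), with 399 CPM KD-labelled and 328 CPM WT-labelled. The 1 gate below 1 was type 2 dendritic cells, with 382 CPM in KD-labelled and 412 CPM in WT-labelled cells (0.927, 0.796 to 1.08). The interval lay above 1 in 6 of the 16 gates and below 1 in 0.

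Irf8, which directs the type 1 dendritic cell and the monocyte and restrains the neutrophil fate, was concentrated in 1 gate. Type 1 dendritic cells had 3359 CPM in the KD-labelled library (4726 UMIs in 115 cells) and 3277 CPM in the WT-labelled library (5796 UMIs in 146 cells). The median cell stood at 3408 CPM KD-labelled and 3544 CPM WT-labelled. The 10 to 90 percentile range of the cells was 1850 to 5017 CPM KD-labelled and 1597 to 4726 CPM WT-labelled, so the level was shared by most cells of the gate. The ratio between libraries was 1.03 (0.986 to 1.07).

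Below this peak, migratory dendritic cells had 695 CPM of Irf8 KD-labelled and 396 CPM WT-labelled, and the macrophage and monocyte gates lay between 148 and 260 CPM in KD-labelled cells and between 148 and 281 CPM in WT-labelled cells. The neutrophil states were near the limit of detection. Retnlg-high neutrophils had 12.5 CPM in the KD-labelled library and no UMI in the WT-labelled library, where a count of 0 allows up to 14.1 CPM. The Mmp9 Cd177 state had 8.11 CPM KD-labelled and 15.6 CPM WT-labelled, and the Cd274 Hcar2 state 10.5 CPM KD-labelled and 11.7 CPM WT-labelled, each from 7 UMIs or fewer. The macrophage transcripts C1qa, C1qb, C1qc and Apoe summed to 2436 CPM in KD-labelled and 3220 CPM in WT-labelled neutrophils.

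Irf8 in the minor dendritic gates differed between the libraries. Type 2 dendritic cells had 178 CPM in KD-labelled cells (135 UMIs in 57 cells) and 52.2 CPM in WT-labelled cells (56 UMIs in 77 cells), a ratio of 3.41 (2.48 to 4.74). A single KD-labelled cell gave 54 of the 135 UMIs. Without the top cell of each library the levels were 108 CPM KD-labelled and 41.3 CPM WT-labelled, so the direction did not rest on that cell but the size did in part. In migratory dendritic cells the ratio was 1.76 (1.42 to 2.18), from 187 UMIs KD-labelled and 161 UMIs WT-labelled. Without the top cell of each library the levels were 593 CPM KD-labelled and 344 CPM WT-labelled. The migratory gate held 36 KD-labelled and 51 WT-labelled cells.

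In macrophages Irf8 leaned the other way. Lyve1 Cd163 macrophages had 148 CPM KD-labelled and 184 CPM WT-labelled (0.804, 0.755 to 0.855), and Ly6c2 Plac8 monocytes 159 CPM KD-labelled and 193 CPM WT-labelled (0.826, 0.736 to 0.927). MHC class II-high cells differed in the opposite direction, with 167 CPM KD-labelled and 148 CPM WT-labelled (1.13, 1.05 to 1.21). All of these are smaller than 1.5-fold.

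Irf4, the interferon regulatory factor of type 2 dendritic cells, was a low-abundance transcript with its highest level in that gate. It had 101 CPM in KD-labelled type 2 dendritic cells (77 UMIs) and 106 CPM in WT-labelled ones (114 UMIs). Migratory dendritic cells had 74.3 CPM KD-labelled (20 UMIs) and 63.9 CPM WT-labelled (26 UMIs). Type 1 dendritic cells, the branch of Irf8, had 2 UMIs in each library, and the 3 neutrophil states had 0 UMIs in both.

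Irf4 and Irf8 thus divided the conventional dendritic gates. Irf8 was 18.9-fold (15.9 to 22.6) higher in type 1 than in type 2 dendritic cells of the KD-labelled library and 62.7-fold (48.2 to 83.1) higher in those of the WT-labelled library. Zeb2, which holds back the type 1 fate, was at 0.0591 times its type 2 level in KD-labelled and 0.0631 times in WT-labelled type 1 dendritic cells. Of 8 members with enough counts, 2 were higher (Irf8 and Batf3) and 4 lower (Irf4, Zeb2, Maf and Bhlhe40) by at least 1.5-fold in KD-labelled type 1 against type 2 dendritic cells, where 37.4% of all genes passed that fold in either direction. In WT-labelled cells 2 were higher (Irf8 and Batf3) and 3 lower (Irf4, Zeb2 and Bhlhe40), against 37.7% of all genes. The Maf call rests on few cells: the level was 24.9 CPM in type 1 and 52.7 CPM in type 2 dendritic cells of the KD-labelled library, and single cells gave 17 of 35 UMIs in type 1 and 16 of 40 in type 2. Without its top cell the type 2 level was 32.5 CPM and the type 1 level 13.1 CPM.

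The 1 member past 1.5-fold between the labels over the monocyte gates was Irf4, among 8 with enough counts, against 2.29% of all genes. It had 17.7 CPM in KD-labelled monocytes (354 UMIs) and 28.8 CPM in WT-labelled monocytes (556 UMIs), a ratio of 0.613 (0.535 to 0.701). Thinned to 1000 UMIs per cell the ratio was 0.736, no longer past 1.5-fold. Most of these UMIs came from MHC class II-high cells, with 26.4 CPM KD-labelled and 44.2 CPM WT-labelled (0.597, 0.511 to 0.697). Ly6c2 Plac8 monocytes had 11.1 CPM KD-labelled and 9.41 CPM WT-labelled, and Car4 Vcan cells 8.65 CPM KD-labelled and 9.25 CPM WT-labelled.

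Markers of type 2 dendritic cells moved with this difference. Their summed level in MHC class II-high cells was 359 CPM KD-labelled and 462 CPM WT-labelled. When the gate was divided by how many of these markers had a UMI, a division chosen after the values were seen, cells with none had 9.46 CPM of Irf4 in KD-labelled and 8.62 CPM in WT-labelled cells (1.10, 0.615 to 1.99). Cells with 1 such marker had 26.9 CPM KD-labelled and 43.8 CPM WT-labelled (0.614, 0.500 to 0.751), and cells with 2 had 87.4 CPM KD-labelled and 103 CPM WT-labelled (0.850, 0.632 to 1.13). Cells with none made up 39.0% of the gate in the KD-labelled library and 29.1% in the WT-labelled library. Irf4 was therefore higher with each added type 2 dendritic marker in both libraries, and the part of these markers in the difference between labels was not tested.

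Batf3, the AP-1 factor that sustains Irf8 in type 1 dendritic cells, was highest in migratory dendritic cells. They had 297 CPM KD-labelled and 216 CPM WT-labelled (1.37, 1.00 to 1.88). Type 1 dendritic cells had 156 CPM KD-labelled (219 UMIs) and 168 CPM WT-labelled (298 UMIs). Outside these gates the levels were low, at 28.2 CPM KD-labelled and 40.2 CPM WT-labelled in MHC class II-high cells and 0.904 CPM KD-labelled and 1.19 CPM WT-labelled in Lyve1 Cd163 macrophages.

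Batf3 was lower in the KD-labelled library in 7 of the 8 gates where it had enough counts. The interval lay below 1 in 4 of the 8 and above 1 in 1, migratory dendritic cells. Cycling and interferon-response cells reached the minimum of 10 CPM only through their WT-labelled level. Among gates short of the minimum counts, Cx3cr1 Vcam1 macrophages were higher KD-labelled (47 UMIs against 20 UMIs WT-labelled, 1.79, 1.04 to 3.18). Cd274 Hcar2 neutrophils were lower, with 1 UMI KD-labelled and 8 UMIs WT-labelled. In the other gates left out the interval included 1. Type 2 dendritic cells had 26.4 CPM KD-labelled (20 UMIs) and 51.3 CPM WT-labelled (55 UMIs), a ratio of 0.514 (0.292 to 0.871). Cycling cells had 4.36 CPM KD-labelled and 10.0 CPM WT-labelled (0.434, 0.309 to 0.602), and interferon-response cells 4.21 CPM KD-labelled and 10.2 CPM WT-labelled (0.414, 0.196 to 0.830). The summed markers of type 2 dendritic cells were also lower there. They were at 67.0 CPM KD-labelled and 139 CPM WT-labelled in cycling cells and 50.2 CPM KD-labelled and 111 CPM WT-labelled in interferon-response cells. In type 2 dendritic cells they were closer, at 1982 CPM KD-labelled and 2141 CPM WT-labelled. Arg1 Spp1 macrophages, with 7 UMIs of Batf3 in each library, had 42.5 CPM of the markers KD-labelled and 83.6 CPM WT-labelled. The part of these markers in the Batf3 difference was not tested. Over the monocyte gates Batf3 had 21.5 CPM KD-labelled and 30.0 CPM WT-labelled (0.716, 0.631 to 0.813). That direction turned when each cell was thinned to 1000 UMIs, which gave 1.17. Thinning is a single random draw that leaves far fewer UMIs, and no interval is given for the thinned ratio. The turn therefore does not show that depth made the difference. Over the neutrophil gates Batf3 was the 1 of 7 members past 1.5-fold, at 9.79 CPM KD-labelled (26 UMIs) and 15.8 CPM WT-labelled (24 UMIs), with an interval of 0.342 to 1.13 that includes 1. In neutrophils 15.5% of all genes passed that fold. The KD-labelled UMIs of Batf3 were 2 in Retnlg-high, 8 in Mmp9 Cd177 and 1 in Cd274 Hcar2 cells. The WT-labelled UMIs were 3, 6 and 8 in the same order, and each state had a lower CPM KD-labelled. The other UMIs came from neutrophils in no named state, which leaned the other way on few UMIs.

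**Figure D2:**
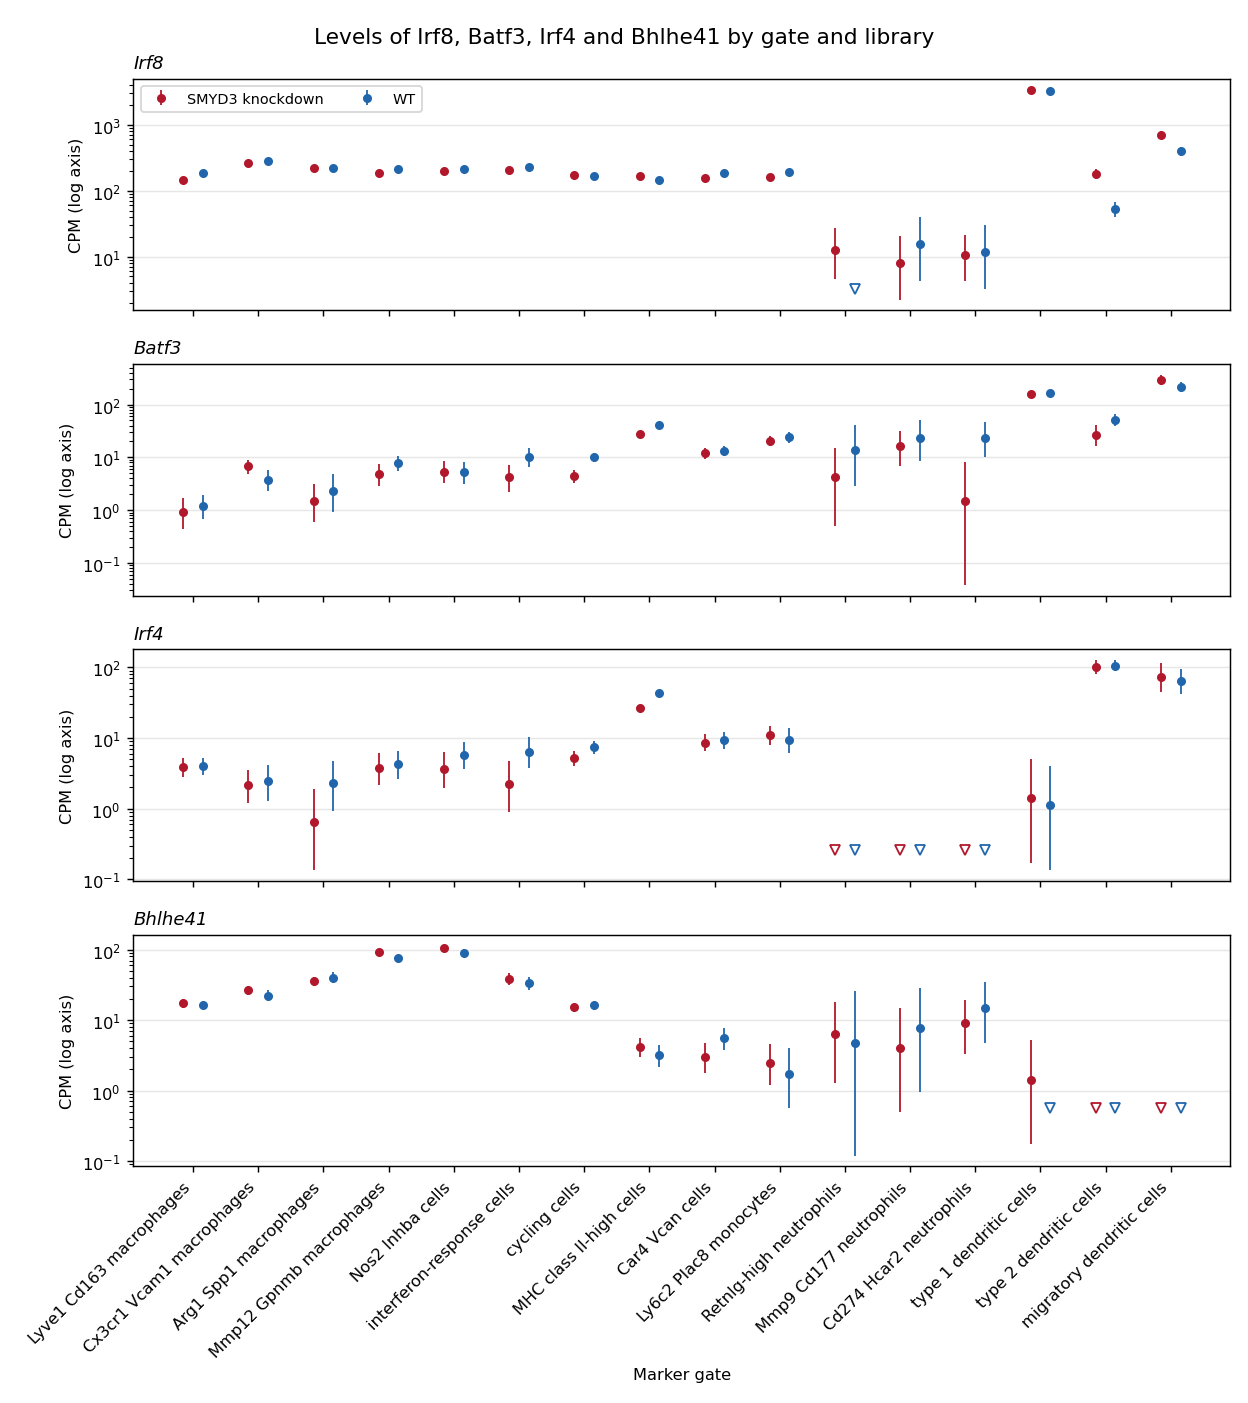
Levels of Irf8, Batf3, Irf4 and Bhlhe41 (CPM, log axis) in the 16 marker gates, with KD-labelled points left of WT-labelled points, exact 95% counting intervals as bars and open triangles for 0 UMIs. Irf8 reaches 3359 CPM KD-labelled and 3277 CPM WT-labelled in type 1 dendritic cells, where Irf4 had 2 UMIs in each library.

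Maf, the large Maf factor of mature tissue macrophages, showed the most distinct steps of the 9 from gate to gate. Lyve1 Cd163 macrophages had 1910 CPM in the KD-labelled library and 1809 CPM in the WT-labelled library, with a 10 to 90 percentile range over cells of 826 to 3319 CPM KD-labelled and 851 to 2911 CPM WT-labelled. Cx3cr1 Vcam1 macrophages had 1124 CPM KD-labelled and 1287 CPM WT-labelled. Mmp12 Gpnmb macrophages had 706 CPM KD-labelled and 625 CPM WT-labelled, and Arg1 Spp1 macrophages 556 CPM KD-labelled and 611 CPM WT-labelled. Monocyte gates were lower, between 152 and 265 CPM KD-labelled and between 142 and 285 CPM WT-labelled. From Ly6c2 Plac8 monocytes to Lyve1 Cd163 macrophages the level was 9.15-fold higher (8.54 to 9.81) in the KD-labelled and 6.35-fold higher (5.93 to 6.82) in the WT-labelled library.

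Between these 2 gates the members differed in both directions. In KD-labelled cells 2 of 9 members, Maf and Bhlhe41, were higher by at least 1.5-fold in the macrophage gate and 3, Irf4, Batf3 and Bhlhe40, were lower. In WT-labelled cells 3 of 8, Maf, Bhlhe41 and Klf4, were higher and 2, Batf3 and Bhlhe40, lower. Of all genes, 38.2% in KD-labelled and 39.6% in WT-labelled cells passed that fold. Bhlhe40 was lower in the macrophages, with 46.3 CPM against 219 CPM in the monocytes of the KD-labelled library and 41.5 CPM against 196 CPM in those of the WT-labelled library.

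Between labels Maf differed little in macrophages. Over the 4 macrophage gates it had 1285 CPM KD-labelled and 1365 CPM WT-labelled (0.941, 0.928 to 0.955), with Lyve1 Cd163 macrophages at 1.06 (1.04 to 1.08) and Cx3cr1 Vcam1 macrophages at 0.873. Lyve1 Cd163 macrophages were 921 of the KD-labelled and 1300 of the WT-labelled macrophages, so the pooled value also carries the mix of states. Ly6c2 Plac8 monocytes had 209 CPM KD-labelled and 285 CPM WT-labelled (0.734, 0.666 to 0.808). Type 2 dendritic cells had 52.7 CPM KD-labelled and 19.6 CPM WT-labelled (2.69, 1.55 to 4.80), from 40 UMIs KD-labelled and 21 UMIs WT-labelled, of which single cells gave 16 KD-labelled and 6 WT-labelled. The dendritic total of Maf, 32.4 CPM KD-labelled and 21.9 CPM WT-labelled (1.48, 1.06 to 2.07), turned under 2 alternatives. With each cell weighing the same the ratio was 0.963. With clusters in place of gates it was 0.641, and there the dendritic clusters were those of type 1 and migratory cells, with no cluster of type 2 cells. In neutrophils Maf had 60.3 CPM KD-labelled and 59.9 CPM WT-labelled, or 24.7 UMIs per 1000 macrophage transcripts in KD-labelled and 18.6 in WT-labelled cells, against 44.3 KD-labelled and 43.5 WT-labelled in macrophages themselves. The part of macrophage transcripts in the neutrophil values was not tested.

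Klf4, a zinc-finger factor of monocytes and of alternatively activated macrophages that also responds early to stress, was highest in the same gate as Maf and lower in the KD-labelled library. Lyve1 Cd163 macrophages had 761 CPM KD-labelled (8424 UMIs) and 966 CPM WT-labelled (13789 UMIs), a ratio of 0.788 (0.767 to 0.810). The median cell had 647 CPM KD-labelled and 782 CPM WT-labelled. The monocyte gates lay between 529 and 567 CPM in KD-labelled and between 567 and 582 CPM in WT-labelled cells, and the neutrophil states between 22.9 and 53.8 CPM KD-labelled and between 42.2 and 126 CPM WT-labelled.

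Klf4 was below 1 in 14 of the 15 gates with enough counts, with the interval below 1 in 10. Over the macrophage gates it had 595 CPM KD-labelled and 756 CPM WT-labelled (0.786, 0.770 to 0.802). This pooled ratio is below that of each of the 4 gates, so it also carries the mix of states. Lyve1 Cd163 macrophages, where Klf4 was highest, were 921 of the 2141 KD-labelled and 1300 of the 2436 WT-labelled cells. Arg1 Spp1 macrophages were at 0.816, Mmp12 Gpnmb macrophages at 0.838 and cycling cells at 0.836, while Cx3cr1 Vcam1 macrophages were at 0.989 (0.944 to 1.04). A list of 18 genes that respond to cell handling, such as Fos and Jun, was also lower. Its summed level was 11287 CPM KD-labelled and 17398 CPM WT-labelled in Lyve1 Cd163 macrophages, and 16223 CPM KD-labelled and 17476 CPM WT-labelled in Cx3cr1 Vcam1 macrophages. In Arg1 Spp1 macrophages it was 11092 CPM KD-labelled and 13570 CPM WT-labelled. The list was also lower in 2 gates where the Klf4 interval included 1. In Ly6c2 Plac8 monocytes (Klf4 ratio 0.993) it was 18121 CPM KD-labelled and 20609 CPM WT-labelled. In type 2 dendritic cells (Klf4 ratio 0.964) it was 11268 CPM KD-labelled and 14542 CPM WT-labelled. The part of handling in the Klf4 difference was not tested.

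In Cd274 Hcar2 neutrophils Klf4 was the 1 of 5 members past 1.5-fold, with 53.8 CPM KD-labelled (36 UMIs) and 126 CPM WT-labelled (43 UMIs), where 21.0% of all genes passed. A single WT-labelled cell gave 27 of the 43 UMIs. Without the top cell of each library the levels were 49.5 CPM KD-labelled and 49.0 CPM WT-labelled. In Mmp9 Cd177 neutrophils Klf4 was also the 1 of 4 past that fold, at 32.4 CPM KD-labelled (16 UMIs) and 82.1 CPM WT-labelled (21 UMIs), against 21.6% of all genes.

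Zeb2, a zinc-finger E-box repressor that keeps monocytes and macrophages from other fates, was broadly expressed in mononuclear phagocytes. Nos2 Inhba cells, which carry nitric oxide synthase and hypoxia-linked genes, had the highest level at 984 CPM KD-labelled and 1130 CPM WT-labelled. Cd274 Hcar2 neutrophils came next with 936 CPM KD-labelled (626 UMIs) and 1115 CPM WT-labelled (381 UMIs). The other neutrophil states were far lower, at 258 CPM KD-labelled and 352 CPM WT-labelled in Retnlg-high cells and 274 CPM KD-labelled and 250 CPM WT-labelled in Mmp9 Cd177 cells. From the Retnlg-high to the Cd274 Hcar2 state the level of Zeb2 was 3.62-fold higher (2.98 to 4.43) in the KD-labelled library and 3.17-fold higher (2.47 to 4.12) in the WT-labelled library. Type 1 dendritic cells had the lowest levels, 21.3 CPM KD-labelled and 31.1 CPM WT-labelled.

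Zeb2 was lower in the KD-labelled library in 14 of 16 gates, with the interval below 1 in 12. Over the macrophage gates the ratio was 0.900 (0.882 to 0.918), from 681 CPM KD-labelled and 757 CPM WT-labelled. It was 0.879 over the monocyte gates (693 CPM KD-labelled and 789 CPM WT-labelled) and 0.746 (0.653 to 0.851) over the dendritic gates (145 CPM KD-labelled and 195 CPM WT-labelled). The dendritic value moved to 1.05 when cells were thinned to 1000 UMIs, a single random draw that leaves fewer UMIs. The 1 gate past 1.5-fold was migratory dendritic cells in the opposite direction, with 186 CPM KD-labelled and 123 CPM WT-labelled from 50 UMIs each (1.51, 1.00 to 2.28).

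**Figure D3:**
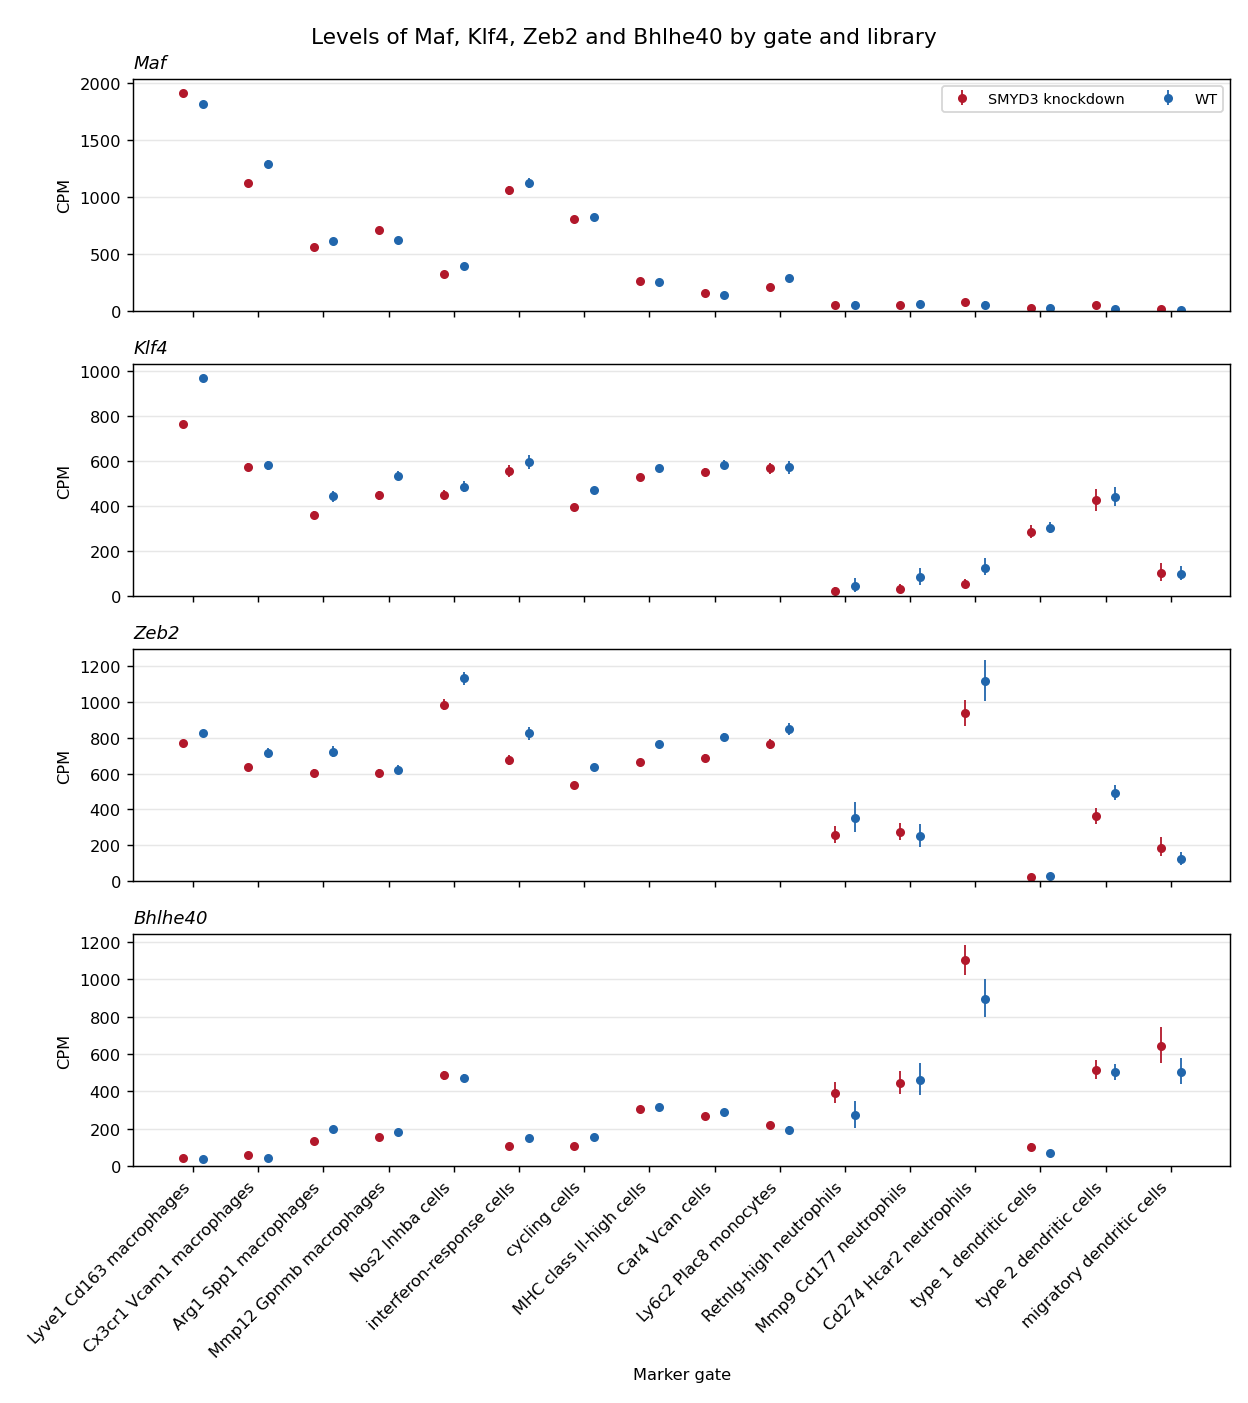
Levels of Maf, Klf4, Zeb2 and Bhlhe40 (CPM, linear axis) in the 16 marker gates, KD-labelled points left of WT-labelled points, with exact 95% counting intervals. Maf declines from 1910 CPM KD-labelled and 1809 CPM WT-labelled in Lyve1 Cd163 macrophages to at most 76.3 CPM in neutrophil and dendritic gates, while Bhlhe40 is lowest in that macrophage gate and highest in Cd274 Hcar2 neutrophils (1100 CPM KD-labelled, 893 CPM WT-labelled).

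Bhlhe40, a repressor induced by activation and low oxygen, was lowest where Maf was highest. Lyve1 Cd163 macrophages had its lowest level, 46.3 CPM KD-labelled and 41.5 CPM WT-labelled, and Nos2 Inhba cells had 486 CPM KD-labelled and 470 CPM WT-labelled. That step was 10.5-fold (9.50 to 11.6) in the KD-labelled and 11.3-fold (10.3 to 12.5) in the WT-labelled library, where 51.0% of all genes in KD-labelled and 49.5% in WT-labelled cells differed by at least 1.5-fold between these gates. Of 7 members, Bhlhe40 and Bhlhe41 were higher and Klf4 and Maf lower by that fold in Nos2 Inhba cells of both libraries. The highest level was in Cd274 Hcar2 neutrophils, with 1100 CPM KD-labelled (736 UMIs) and 893 CPM WT-labelled (305 UMIs). Retnlg-high neutrophils had 392 CPM KD-labelled and 272 CPM WT-labelled, so the level was 2.81-fold higher (2.39 to 3.32) in the Cd274 Hcar2 state of the KD-labelled and 3.28-fold higher (2.47 to 4.43) in that of the WT-labelled library. In this neutrophil comparison Klf4, Zeb2, Maf and Bhlhe40, 4 of 5 members with enough counts, were higher by at least 1.5-fold in KD-labelled cells, and Klf4, Zeb2 and Bhlhe40, 3 of 4, in WT-labelled cells. The WT-labelled Klf4 value rests on the single Cd274 Hcar2 cell named above, without which it was 49.0 CPM, against 42.2 CPM in Retnlg-high cells (9 UMIs). Spi1 was lower in both, at 0.563 times its Retnlg-high level KD-labelled and 0.575 times WT-labelled. These counts stand against 53.4% of all genes KD-labelled and 56.8% WT-labelled.

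The difference between labels in Bhlhe40 ran in both directions. Over the neutrophil gates it had 667 CPM KD-labelled and 498 CPM WT-labelled (1.34, 1.23 to 1.46), with Retnlg-high cells at 1.44 (1.07 to 1.97) and Cd274 Hcar2 cells at 1.23 (1.08 to 1.41). Mmp9 Cd177 cells were at 0.963 (0.766 to 1.21), with 444 CPM KD-labelled and 461 CPM WT-labelled. The pooled value also holds the neutrophils in no named state, 685 KD-labelled and 442 WT-labelled cells. They were also higher KD-labelled, by more than any of the named states, so the pooled ratio does not rest on the named states alone. The handling list summed to 45575 CPM KD-labelled and 40564 CPM WT-labelled over the neutrophil gates. By state it had 44369 CPM KD-labelled and 43517 CPM WT-labelled in Retnlg-high cells, and 48135 CPM KD-labelled and 45330 CPM WT-labelled in Mmp9 Cd177 cells. In Cd274 Hcar2 cells it had 46844 CPM KD-labelled and 38268 CPM WT-labelled. The part of handling in the Bhlhe40 difference was not tested. Arg1 Spp1 macrophages had 137 CPM KD-labelled and 200 CPM WT-labelled (0.685, 0.612 to 0.767), cycling cells 107 CPM KD-labelled and 156 CPM WT-labelled (0.682, 0.636 to 0.732) and interferon-response cells 107 CPM KD-labelled and 153 CPM WT-labelled (0.697, 0.601 to 0.808). Cx3cr1 Vcam1 macrophages had 60.6 CPM KD-labelled and 44.6 CPM WT-labelled (1.36, with the interval above 1). The interval lay above 1 in 6 gates and below 1 in 5. Over the monocyte gates the ratio was 0.949, and it turned to 1.01 with each cell weighing the same and to 1.05 when cells were thinned to 1000 UMIs. Over all macrophage gates the ratio was 0.977.

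Bhlhe41, its paralogue, was restricted to fewer gates. Nos2 Inhba cells had 104 CPM KD-labelled (370 UMIs) and 90.3 CPM WT-labelled (325 UMIs), and Mmp12 Gpnmb macrophages 91.7 CPM KD-labelled and 75.6 CPM WT-labelled (1.21, 1.05 to 1.40). Arg1 Spp1 macrophages had 35.6 CPM KD-labelled and 40.0 CPM WT-labelled, and interferon-response cells 38.5 CPM KD-labelled and 33.5 CPM WT-labelled. The monocyte gates had under 6 CPM in both libraries, and type 2 and migratory dendritic cells had 0 UMIs. Both paralogues were therefore high in Nos2 Inhba cells, whereas in Cd274 Hcar2 neutrophils Bhlhe40 was at its peak and Bhlhe41 had 6 UMIs or fewer in each library. Over the macrophage gates Bhlhe41 had 34.5 CPM KD-labelled and 30.8 CPM WT-labelled (1.12, 1.02 to 1.23).

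**Figure D4:**
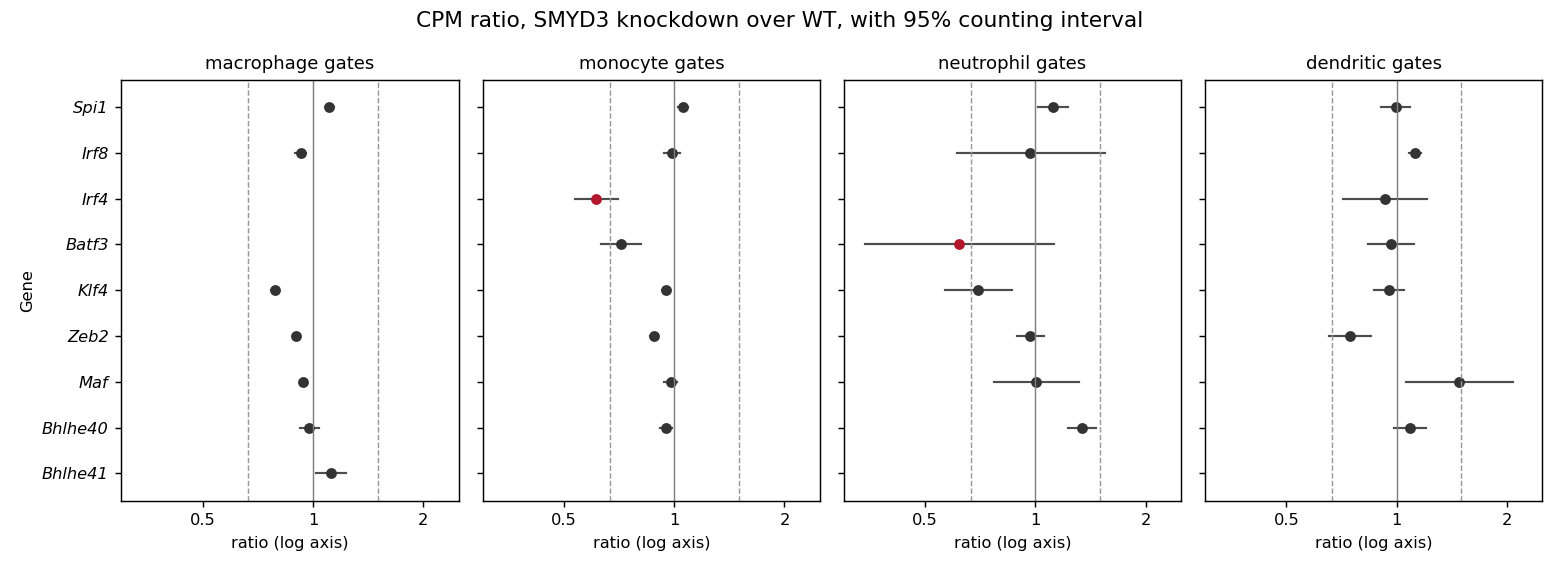
Ratio of KD-labelled to WT-labelled CPM (log axis) for each factor with at least 20 UMIs and 10 CPM in macrophage, monocyte, neutrophil and dendritic gates, with exact 95% counting intervals, dashed lines at 1.5-fold either way and red for points past them. The 2 red points are Irf4 in monocytes (0.613) and Batf3 in neutrophils (0.620).

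Members past 1.5-fold between the labels were 0 of 7 over the macrophage gates, where 1.90% of all genes passed, and 1 of 8 over the monocyte gates, where 2.29% passed. They were 1 of 7 over the neutrophil gates, against 15.5%, and 0 of 8 over the dendritic gates, against 8.06%. With so few members, these counts do not set them apart from all genes. The median log2 ratio of the members was -0.09 in macrophages, against -0.00 for all genes, and -0.07 in monocytes, against -0.03. In neutrophils it was -0.05, against -0.11, and in dendritic cells -0.03, against -0.03.

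Among the single gates, type 2 dendritic cells held the most members past that fold, 3 of 8 (Irf8 and Maf higher, Batf3 lower in KD-labelled cells), against 17.8% of all genes. Migratory dendritic cells had 2 of 7, Irf8 and Zeb2, both higher, against 22.9% of all genes. MHC class II-high cells had 1 of 8, Irf4, against 3.45%. Cycling cells had 1 of 8 against 2.89% and interferon-response cells 1 of 8 against 9.76%. It was Batf3 in both, where only its WT-labelled level reached 10 CPM. Klf4 in 2 neutrophil gates is given above. In the remaining 9 gates no member passed. Of all genes, 3.07% passed in Lyve1 Cd163, 3.92% in Cx3cr1 Vcam1, 8.61% in Arg1 Spp1 and 5.92% in Mmp12 Gpnmb macrophages. The shares were 7.97% in Nos2 Inhba cells, 4.34% in Car4 Vcan cells and 7.51% in Ly6c2 Plac8 monocytes, and 23.0% in Retnlg-high neutrophils and 12.7% in type 1 dendritic cells.

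A list of 46 other transcription factors of the myeloid lineages was measured in the same way. Over the macrophage gates 0 of 36 with enough counts were higher and 2 were lower by at least 1.5-fold in KD-labelled cells. These were Cebpb, a C/EBP factor of macrophage and granulocyte activation, at 0.224, and Nr4a1, an immediate-early nuclear receptor, at 0.632. Over the monocyte gates 0 of 38 were higher and 2 lower, Cebpb at 0.283 and Nr4a3 at 0.553. Over the dendritic gates 0 of 38 were higher and 2 lower, Cebpb at 0.240 and Cebpe at 0.429. Over the neutrophil gates 2 of 37 were higher, Cebpa at 1.81 and Irf7 at 1.64, and Cebpb was lower at 0.265. Of all genes, 1.90% passed that fold either way over the macrophage gates and 2.29% over the monocyte gates. The shares were 8.06% over the dendritic gates and 15.5% over the neutrophil gates. The median log2 ratio of this list was -0.15 in macrophages, -0.14 in monocytes, -0.19 in neutrophils and -0.18 in dendritic cells. Over these 4 groups of gates the lowest ratio of a member with enough counts was 0.613. Cebpb in Lyve1 Cd163 macrophages had 155 CPM KD-labelled and 782 CPM WT-labelled.

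For each member the genes most alike in profile over the 32 gate and library values, among 5362 genes in no marker list, were found by Pearson's r of log2(CPM + 5). These points share libraries and depth, and r is given as a description. Maf was closest to Stab1, the scavenger receptor stabilin-1 (0.969), and to Rgl1 and Ccl7. Klf4 was closest to Hsp90b1, an endoplasmic reticulum chaperone (0.972), Zeb2 to Sirpa, the inhibitory receptor for Cd47 (0.901), and Bhlhe40 to Runx2 (0.918). Irf8 was closest to Mvb12a (0.935), Irf4 to Calcb (0.927), Batf3 to Dapp1 (0.897), Bhlhe41 to Lhfpl2 (0.933) and Spi1 to Nfam1 (0.884).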

How the data were processed

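The deposited matrix holds whole UMI counts per gene and cell for both libraries, made with Cell Ranger 7.1.0 per the file headers, on mm10 per the submitters' processing notes. Annotation release, intron counting, strand use and any equalising of depth are not given in the sources used here. Barcodes were assigned to libraries by matching their sequences to the deposited cell table. Cells were kept above minima of 200 genes and 500 UMIs and up to 20% mitochondrial UMIs. Scrublet (scanpy 1.11.5) marked 0 doublets at its own threshold, so the top-scoring 0.8% per 1000 cells were taken out, which were 723 KD-labelled and 603 WT-labelled cells.

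Cells were gated one by one on marker genes, and states were the best marker score of at least 0.3 with a lead of 0.05. These thresholds were set after seeing the data, and 725 of 15056 scored cells lay within 0.05 of the threshold. UMIs were summed per gate and library and divided by the gate total (CPM). Intervals are exact at 95% (Poisson for levels, conditional binomial for ratios; scipy 1.17.1, python 3.11.15). A gene was counted between libraries with at least 20 UMIs and 10 CPM in the higher library, and called past 1.5-fold either way. No test was made with 1 library per label. The procedure was tested on simulated data.

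Named genes were the 9 members, up to 4 other factors per group of gates by size of the log2 ratio, and the 3 genes most alike to each member. A factor that this rule names in neutrophils is not reported here. Members and lists were chosen with earlier results of these data known. Alternatives changed the weighting of cells, depth, doublets, mitochondrial limit, scaling, total, gate threshold, cell grouping (Leiden clusters, leidenalg 0.10.2) and count minimum. Coordinates are from GENCODE vM21, and promoters from RefSeq.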

Additional observations from a re-analysis of the deposited data

Results flagged for a closer look

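For 3 factors the difference between labels had opposite directions in 2 groups of gates, with counting intervals on opposite sides of 1. With 1 library per label the difference between the groups was not tested, and for Maf and Bhlhe40 the directions were not opposite under every alternative. The ratio of KD-labelled to WT-labelled Irf8 was 1.21 times as high in dendritic gates (1.12) as in macrophage gates (0.925). Type 1 cells gave 4726 of the 5048 KD-labelled and 5796 of the 6013 WT-labelled dendritic UMIs of Irf8. Their own ratio was 1.03 (0.986 to 1.07), so the pooled dendritic ratio also carries the mix of gates. It was 1.02 with cells thinned to 1000 UMIs and 1.07 with doublets kept, both outside its counting interval. For Maf the dendritic ratio (1.48) was 1.58 times the macrophage ratio (0.941), and the dendritic value rests on 79 UMIs KD-labelled and 71 UMIs WT-labelled. The dendritic Maf ratio was 0.963 under equal weight of cells and 0.641 with Leiden clusters. For Bhlhe40 the neutrophil ratio (1.34) was 1.41 times the monocyte ratio (0.949), which was 1.01 under equal weight of cells and 1.05 with cells thinned to 1000 UMIs.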

How the results depend on the processing

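No paired analysis was possible because there is 1 library per label and the results come from no test. The count of factors keeping their highest gate was 9 in the main run. It was 8 with cells thinned to 1000 UMIs, with doublets kept and with the stricter gate. The count of members past 1.5-fold between labels was 0 in macrophage gates under every alternative run. In neutrophil gates, where it was 1, it was 0 with each cell weighing the same, with cells thinned to 1000 UMIs, with scaling by the median ratio of all genes, with Leiden clusters in place of gates and with at least 100 UMIs and 50 CPM, and it was 3 with no count minimum. The Batf3 ratio behind that call, 0.620, was 0.667 under median-ratio scaling, at the edge of 1.5-fold, and is not altered by the higher minimum, which only stops counting it. It was 0.704 when thinned, 0.802 with equal weight and 0.823 with Leiden clusters. In monocyte gates, where it was 1, it was 0 with thinned cells and with the higher count minimum. In dendritic gates, where it was 0, it was 1 with median-ratio scaling and with Leiden clusters. That member was Maf in both, in opposite directions, at 1.52 with median-ratio scaling and 0.641 with Leiden clusters. The cause of these changes in count was not tested, except that thinning leaves fewer UMIs and the higher minimum fewer members. Of 30 ratios of members over the 4 groups of gates, 22 kept within their counting interval with each cell weighing the same, 12 when thinned, 24 with Leiden clusters and 28 with doublets kept. All 30 did so under the 10% mitochondrial limit, the other scaling and total, the stricter gate, and without barcode sequences found in both libraries, an alternative chosen after seeing the data. The ratio crossed 1 in 8 cases when thinned, among them Irf4 in dendritic gates (1.31 against 0.930), and in 6 with equal weight. Thinned ratios come from a single random draw with fewer UMIs, and their own counting intervals are not given. Cells under 1000 UMIs drop out, so 1464 of 1728 KD-labelled and 825 of 988 WT-labelled neutrophils remained. Klf4 pooled over the macrophage gates stayed between 0.770 and 0.847, a ratio that also carries the mix of states.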

Other observations

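Lymphoid cells and the rarest dendritic cells, too few for the comparison of labels, also held some of the factors. Plasmacytoid dendritic cells, which depend on Irf8, numbered 1 in the KD-labelled and 10 in the WT-labelled library, and had 1734 CPM of Irf8 (20 UMIs) KD-labelled and 4818 CPM (279 UMIs) WT-labelled. The 1 KD-labelled cell had macrophage transcripts at 28519 CPM. Natural killer cells (19 KD-labelled and 32 WT-labelled) had 1340 CPM of Irf8 KD-labelled and 641 CPM WT-labelled. B and plasma cells (11 KD-labelled and 18 WT-labelled) had 713 CPM of Irf8 KD-labelled and 1743 CPM WT-labelled, and 79.2 CPM of Irf4, which drives plasma cell formation, KD-labelled and 142 CPM WT-labelled.

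T cells (93 KD-labelled and 130 WT-labelled) had 402 CPM of Maf KD-labelled and 384 CPM WT-labelled, and by coincidence the same totals of Bhlhe40, 126 UMIs KD-labelled and 172 UMIs WT-labelled, from different cells. They had 28.7 CPM of Spi1 KD-labelled and 24.6 CPM WT-labelled. Cells with tumour or epithelial markers had 16.4 CPM of Spi1 KD-labelled and 11.0 CPM WT-labelled, against 346 CPM KD-labelled and 312 CPM WT-labelled in macrophages.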
